A study of Homo sapiens with 4 samples.

Results

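The WNT ligand genes followed here are WNT2B, WNT3, WNT4, WNT5A, WNT5B, WNT7A, WNT7B, WNT9A, WNT10A and WNT11, found by symbol as 10 of the 23143 rows of 1 deposited expression table. A549 is a human lung adenocarcinoma line, and the design text calls the cells used A549i. Polyadenylated RNA was sequenced in 4 libraries, 2 of cells given doxycycline, in which GATA4 is overexpressed (DOX), and 2 of cells with the normal level of GATA4 (noDOX), which the design text describes as given vehicle. GATA4 is a DNA-binding regulator of heart, gut and liver development. No library of doxycycline-treated cells without the inducible GATA4 was analysed here, so the drug and the factor cannot be told apart. No dose, exposure time or promoter of the inducible gene is given in the sources used here, nor whether the cells were 1 clone. Values are FPKM, fragment numbers divided by transcript length and by library size, so levels can be set side by side between genes.

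WNT proteins are secreted, lipid-modified signals that bind Frizzled receptors together with co-receptors such as LRP5 and LRP6. One branch of the pathway stabilises β-catenin, which then drives transcription with TCF and LEF factors. Other branches act on cell polarity and movement without β-catenin. In lung development, WNT ligands of the epithelium and of the surrounding mesenchyme help specify the lung field and drive branching growth.

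GATA4 itself was at 75.0 and 48.0 FPKM in the DOX libraries, against 12.2 and 14.5 FPKM in the noDOX libraries, so the direction of the labels held, although the gene missed the threshold over all genes tested (limma, adjusted p = 0.289). Genes at 1 FPKM or more numbered 11974 to 12622 per library. For 81.9% of low genes the FPKM came out as whole multiples of what 1 fragment is worth. Taking the commonest ratio between libraries, met by 63 to 108 of 598 low genes, as that of equal fragment numbers gave estimated depths of 1.10 and 0.726 for DOX libraries 1 and 2 relative to noDOX library 1, and of 1.15 for noDOX library 2. All 6 epithelial markers fixed for A549 were above 0 in every library and 5 overlapped between the groups, with KRT8 at 2340 FPKM or more and SLC34A2 as low as 0.0536 FPKM in noDOX library 1. EPCAM, the sixth, had 3.83 and 3.08 FPKM in the DOX libraries, against 8.27 and 13.7 FPKM in the noDOX libraries (log2 difference -1.40, SE 0.29; limma, adjusted p = 0.494), and its part in the ligand values was not tested. The alveolar marker SFTPC was listed at 0 in both DOX libraries and had 0.0685 and 0.0949 FPKM without doxycycline. The alveolar factor gene NKX2-1 was at most 0.754 FPKM. Of the 6 alveolar markers, 2 were at 1 FPKM or more in every library. These were ABCA3, at 3.75 FPKM or more, and NAPSA, at 1.02 FPKM or more. All alveolar markers other than SFTPC overlapped between the groups.

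NoDOX library 2 was often the highest library, and not for this family alone. It was also highest for 44.1% of the 59 tested pathway genes, against 25.4% of all genes tested. It held the highest value of 5 of the 10 ligand genes, and of 12 of the 18 human WNT genes that were above 0 anywhere, whereas it was the highest library for 32.0% of all 19429 genes above 0. The summed level of 9 markers of blood, endothelium and fibroblasts was 5.51 and 4.11 FPKM in the DOX libraries and 4.98 and 12.3 FPKM in noDOX libraries 1 and 2. LYZ and COL1A1 made up most of it. COL1A1 did not overlap between the groups, with 1.76 and 2.88 FPKM in the DOX libraries and 3.76 and 8.46 FPKM in the noDOX libraries, a ratio of means of 0.380 beside 0.374 for WNT7B, while LYZ overlapped. The T cell marker CD3E and the fibroblast marker DCN were listed at 0 in all 4 libraries, and 2 to 5 of the 9 were at 0 in each. The part of these differences in the ligand values was not tested.

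WNT3 and WNT7B were the most abundant members, and their order was opposite in the groups. WNT3, a ligand needed for the primitive streak in the mouse and a strong activator of β-catenin signalling, was at 9.48 and 8.12 FPKM in the DOX libraries and at 3.64 and 4.08 FPKM in the noDOX libraries. The DOX values were the 2 higher ones, with means of 8.80 ± 0.96 FPKM in DOX and 3.86 ± 0.31 FPKM in noDOX libraries (SD, n = 2 each). WNT7B, a ligand of the lung epithelium that drives branching growth in the mouse, was at 3.81 and 6.14 FPKM in the DOX libraries and at 8.05 and 18.6 FPKM in the noDOX libraries. Both DOX values lay below both noDOX values, and the noDOX values were far apart from each other, with means of 4.97 ± 1.6 FPKM in DOX and 13.3 ± 7.4 FPKM in noDOX libraries (SD, n = 2 each). In bulk RNA, fewer cells with a transcript and less of it per cell cannot be told apart.

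**Figure D1:**
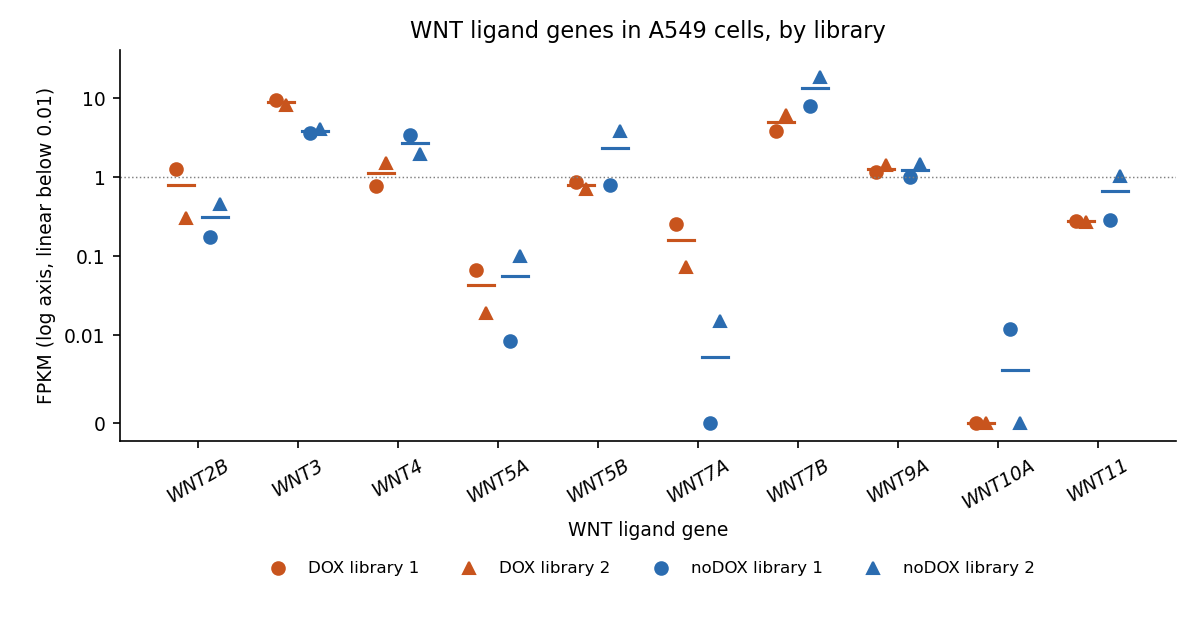
FPKM of the 10 WNT ligand genes in each library (log axis, linear below 0.01), with circles for library 1, triangles for library 2, a line at each group mean and a dotted line at 1 FPKM, the minimum mean for testing. DOX lies above noDOX in both libraries for WNT3 and WNT7A, and below it in both for WNT4, WNT7B and WNT11.

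Within each library the ratio of WNT3 to WNT7B was 2.49 and 1.32 in the DOX libraries, against 0.452 and 0.220 in the noDOX libraries. On the log2 scale the ratio averaged 0.859 ± 0.64 in DOX and -1.66 ± 0.74 in noDOX libraries (SD, n = 2 each). WNT3 was thus the more abundant of the pair in both DOX libraries and WNT7B in both noDOX libraries. An exact permutation test of 2 against 2 libraries cannot go below p = 0.333, and this ratio and the sums of ligand genes are given as values with no other test.

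In the fit across all genes, limma was run on log2(FPKM + 1) for the 12504 genes that averaged 1 FPKM or more over the libraries, and p-values were adjusted over all of them by the Benjamini-Hochberg method. The filter let 5 of the 10 members through, WNT3, WNT4, WNT5B, WNT7B and WNT9A. Of these, 0 passed the threshold of 0.05 and 1, WNT3, had an unadjusted p under 0.05, while 0.088% of all genes tested passed and 793 had an unadjusted p under 0.05. WNT3 had a log2 difference of 1.01 with a standard error of 0.18 (limma, adjusted p = 0.406). WNT7B had a log2 difference of -1.18 with a standard error of 0.45 (adjusted p = 0.787). Without noDOX library 2 the difference was -0.63, against -1.74 without noDOX library 1. The difference of WNT3 ran only from 0.91 to 1.11 over the 4 fits that left out a library. The labels name no separate origin of the replicates, so these p-values measure the spread between libraries, which may be technical.

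WNT4, a ligand of kidney and ovary development, was at 0.764 and 1.52 FPKM in the DOX libraries and at 3.40 and 1.98 FPKM in the noDOX libraries. The groups did not overlap, and the DOX mean was 0.425 times the noDOX mean. Its log2 difference was -0.78 with a standard error of 0.32 (limma, adjusted p = 0.835), and it was -0.50 without noDOX library 1 and -1.06 without noDOX library 2. Its values stand for 118 and 155 fragments in the DOX libraries and 477 and 320 in the noDOX libraries, taken as the smallest whole numbers in the ratio of the FPKM after scaling for depth. WNT4 was the 1 tested member whose highest value was in noDOX library 1.

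WNT5B, a ligand of the WNT5 subfamily that acts largely without β-catenin, had a difference that rested on noDOX library 2. It was at 0.859 and 0.717 FPKM in the DOX libraries, and at 0.787 and 3.83 FPKM in noDOX libraries 1 and 2. The log2 difference of -0.72 (SE 0.52; limma, adjusted p = 0.990) was 0.00 without noDOX library 2 and -1.44 without noDOX library 1. WNT11, a ligand of cell movement in the early embryo and of kidney branching, had a like pattern at a lower level. It was at 0.278 and 0.275 FPKM in the DOX libraries and at 0.291 and 1.05 FPKM in the noDOX libraries, which stand for 20 and 13 fragments in the DOX libraries and 19 and 79 in the noDOX libraries. Without noDOX library 2 its log2 difference was -0.02, against -0.35 with all libraries, and it was too low for the test.

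WNT9A, a ligand of joint formation, was the member with the smallest difference among those tested. It was at 1.16 and 1.41 FPKM in the DOX libraries and at 1.02 and 1.46 FPKM in the noDOX libraries. The smallest whole numbers in this ratio after scaling for depth were 25 and 20 in the DOX libraries and 20 and 33 in the noDOX libraries. WNT4 at 0.764 FPKM in DOX library 1 gave 118, and the true fragment numbers of WNT9A may be a common multiple of those found. The groups overlapped, and the log2 difference of 0.03 (SE 0.24; limma, adjusted p = 0.999) turned to -0.11 without noDOX library 1. WNT2B, which takes part in specifying the lung in the mouse embryo, was at 1.27 and 0.301 FPKM in the DOX libraries and at 0.175 and 0.455 FPKM in the noDOX libraries. Only DOX library 1 was high, and without it the log2 difference was -0.01, against 0.39 with all libraries. In GENCODE release 29, exons of WNT2B share bases with those of the antisense gene ST7L. ST7L had 3.02 and 3.40 FPKM in the DOX libraries, against 3.42 and 2.41 FPKM in the noDOX libraries. With no strand setting stated, reads of that shared stretch cannot be told apart. Exons of WNT4 and WNT11 share bases with unnamed antisense genes that have no row under their GENCODE names, AL445253.1 and AP000785.1.

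**Figure D2:**
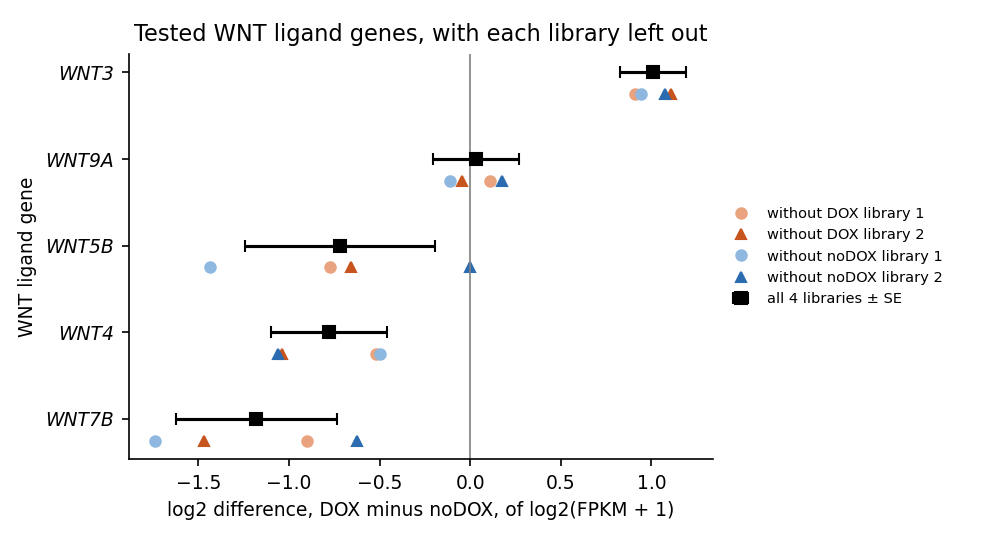
Log2 differences (DOX minus noDOX, of log2(FPKM + 1)) of the 5 tested WNT ligand genes, with squares and standard errors for the limma fit to all 4 libraries and coloured points for the fits or group means without 1 library. WNT3 stays between 0.91 and 1.11, while WNT5B lies at 0.00 without noDOX library 2.

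The remaining members were close to the detection limit. WNT7A, the closest relative of WNT7B and a ligand of limb patterning in the mouse, was at 0.254 and 0.0723 FPKM in the DOX libraries, listed at 0 in noDOX library 1 and at 0.0152 FPKM in noDOX library 2. These values stand for 16 and 3 fragments in the DOX libraries against 0 and 1 in the noDOX libraries. Both DOX libraries were higher, and the ratio of fragments per depth over the summed libraries was 22.4. DOX library 1 gave 16 of the 19 DOX fragments, and this ratio takes no account of the spread between libraries. WNT7A made up 6.24% and 1.17% of the sum of WNT7A and WNT7B in the DOX libraries, and 0.0818% in noDOX library 2. WNT5A, the best known ligand of the branches without β-catenin, was at 0.0681 and 0.0194 FPKM in the DOX libraries and at 0.00938 and 0.102 FPKM in the noDOX libraries, which stand for 16 and 3 fragments in the DOX libraries and 2 and 25 in the noDOX libraries. Its groups overlapped, and the spread within each group was larger than the difference between them. WNT10A, a ligand of teeth and skin appendages, was at 0.0122 FPKM in noDOX library 1 and listed at 0 in the other libraries, both DOX libraries included.

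Over all 10 members, 2 had both DOX libraries above both noDOX libraries and 3 had both below, while among all 19429 genes above 0 in any library these shares were 12.6% and 19.4%. The 5 tested members had a median log2 difference of -0.72, against -0.04 for all genes tested. That median is the value of WNT5B, and without noDOX library 2, where WNT5B no longer reached the minimum, the median of the other 4 was -0.23.

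**Figure D3:**
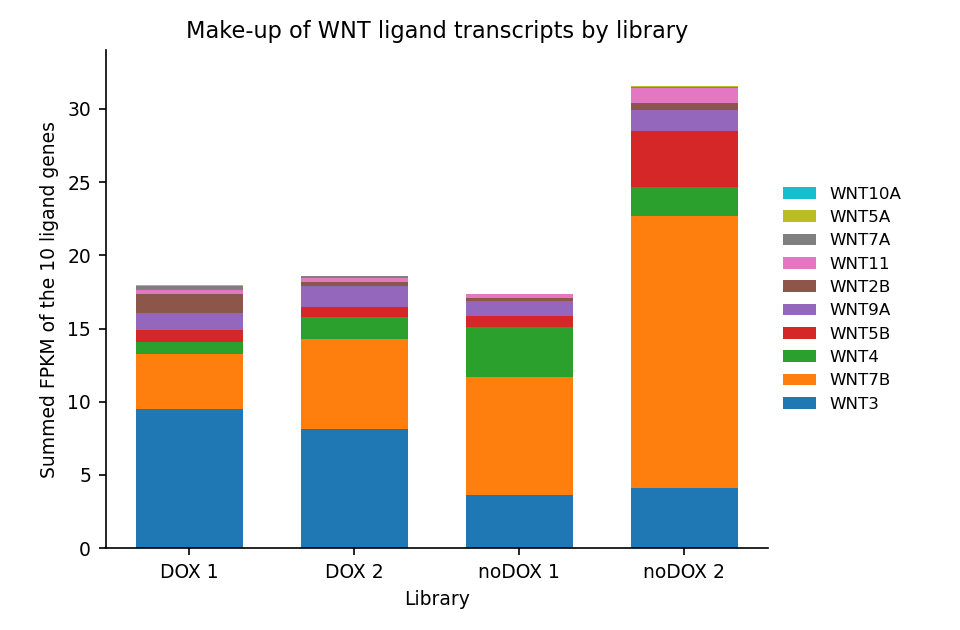
FPKM of the 10 WNT ligand genes stacked by library. The total is 17.9 and 18.6 in the DOX libraries and 17.4 and 31.5 in noDOX libraries 1 and 2, and the WNT3 segment is larger than the WNT7B segment in the DOX libraries only.

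The total ligand transcript level overlapped between the groups, while the shares of WNT3 and WNT7B in it did not. By share of the total, WNT2B, WNT3, WNT7A and WNT9A were higher with doxycycline and WNT7B and WNT11 lower without overlap. The other 4, among them WNT4 and WNT5B, overlapped. In FPKM, WNT2B and WNT9A overlapped. Shares of 1 total depend on each other, and no count over all genes can be set beside them. The 10 genes summed to 17.9 and 18.6 FPKM in the DOX libraries and to 17.4 and 31.5 FPKM in the noDOX libraries, so the totals overlapped and noDOX library 2 alone was high. WNT3 held 52.8% and 43.7% of the total in the DOX libraries, against 20.9% and 12.9% in the noDOX libraries. WNT7B held 21.3% and 33.0% in the DOX libraries, against 46.3% and 58.8% in the noDOX libraries. Together WNT3 and WNT7B held most of the total in every library, 74.1% and 76.8% with doxycycline and 67.2% and 71.8% without. For this pair both DOX shares were above both noDOX shares, and the groups lay closer together than for either gene alone. WNT4, WNT5A, WNT5B and WNT11 were grouped here as ligands that can signal without β-catenin. They summed to 1.97 and 2.54 FPKM in the DOX libraries and to 4.49 and 6.97 FPKM in the noDOX libraries. They held 11% and 13.7% of the total with doxycycline and 25.8% and 22.1% without, with no overlap. WNT4 gave 3.40 of the 4.49 FPKM in noDOX library 1, and WNT5B gave 3.83 of the 6.97 FPKM in noDOX library 2. Without WNT4 the sums were 1.21 and 1.01 FPKM in the DOX libraries and 1.09 and 4.99 FPKM in the noDOX libraries, which overlapped. The shares were then 6.72% and 5.45% in the DOX libraries and 6.26% and 15.8% in the noDOX libraries, also with overlap. Without WNT5B the sums were 1.11 and 1.82 FPKM in the DOX libraries and 3.71 and 3.14 FPKM in the noDOX libraries. Here the shares were barely apart, with 6.19% and 9.79% in the DOX libraries and 21.3% and 9.94% in the noDOX libraries. The other 6 members, grouped here as β-catenin ligands, summed to 16.0 FPKM in both DOX libraries. They summed to 12.9 and 24.6 FPKM in the noDOX libraries, so DOX and noDOX libraries overlapped.

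In the order of levels in DOX libraries, WNT3 stood above WNT7B in both libraries and WNT7B above every other WNT gene. WNT9A, WNT4, WNT5B and WNT2B followed with means of 1.28, 1.14, 0.788 and 0.785 FPKM, and neighbours in this stretch overlapped. In noDOX libraries WNT7B stood above WNT3, and WNT4, WNT5B, WNT9A and WNT11, with means of 2.69, 2.31, 1.24 and 0.671 FPKM, overlapped each with the next. Of the 9 other human WNT genes, 5 exceeded 0.1 FPKM in a library and 1, WNT10B, reached the test. WNT10B was at 1.88 and 2.0 FPKM in the DOX libraries and at 2.11 and 3.42 FPKM in the noDOX libraries (log2 difference -0.33, SE 0.25; limma, adjusted p = 0.999), and only WNT3 and WNT7B had higher means in either group. WNT6 was at 0.128 and 0.122 FPKM in the DOX libraries and at 0.265 and 0.767 FPKM in the noDOX libraries. WNT8B was at 0.0535 and 0.0813 FPKM in the DOX libraries, against 0.162 and 0.307 FPKM in the noDOX libraries, and WNT2, which acts with WNT2B in the mouse lung, was at 0.0443 FPKM and listed at 0 in the DOX libraries, against 0.110 and 0.280 FPKM in the noDOX libraries. The DOX values of these 4 genes lay below both noDOX values. Of the 8 other WNT genes above 0 in any library, 1, WNT9B, was higher without overlap. Among all 19429 genes above 0 in any library, 19.4% were lower and 12.6% higher without overlap. The 4 lower genes, WNT10B, WNT6, WNT8B and WNT2, were all highest in noDOX library 2. Without that library their log2 differences were -0.08 for WNT10B, -0.17 for WNT6, -0.12 for WNT8B and -0.12 for WNT2, against -0.33, -0.41, -0.21 and -0.22 with it. WNT3A was at 0.0173 and 0.0395 FPKM in the DOX libraries and at 0.0286 and 0.108 FPKM in the noDOX libraries, with overlap.

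Several WNT genes are neighbours on their chromosomes, and neighbours had unlike levels. WNT9B, next to WNT3 in the RefSeq annotation, was at 0.0571 and 0.0578 FPKM in the DOX libraries, listed at 0 in noDOX library 1 and at 0.0364 FPKM in noDOX library 2, which stand for 3 and 2 fragments in the DOX libraries and 0 and 2 in the noDOX libraries. WNT6 is next to WNT10A, which had a value above 0 in a single library. WNT3A is a protein-coding neighbour of WNT9A, and it stood for 2 and 3 fragments in the DOX libraries and 3 and 13 in the noDOX libraries.

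The stretch before the start site is shown for the members whose libraries did not overlap between groups and that had an entry in the RefSeq promoter table (build GRCh38.p14), where 8 of the 10 members matched, with 11 start sites. WNT7B and WNT11 had no entry, so no window of these genes was searched. The authors' files use hg19, so these positions are not those of the deposited quantification. Each line gives the 250 bases before the start site, 5′ to 3′, with CG dinucleotides in capitals. They lie at chr17:46818693-46818942 for WNT3, chr1:22143098-22143347 for WNT4 and chr3:13880072-13880321 for WNT7A, all on the minus strand.
WNT3: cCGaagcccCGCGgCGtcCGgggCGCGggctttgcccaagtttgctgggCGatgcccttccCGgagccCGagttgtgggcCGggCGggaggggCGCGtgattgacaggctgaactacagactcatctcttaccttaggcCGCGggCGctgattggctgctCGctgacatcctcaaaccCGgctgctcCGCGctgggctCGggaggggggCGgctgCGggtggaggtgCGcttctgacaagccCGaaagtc
WNT4: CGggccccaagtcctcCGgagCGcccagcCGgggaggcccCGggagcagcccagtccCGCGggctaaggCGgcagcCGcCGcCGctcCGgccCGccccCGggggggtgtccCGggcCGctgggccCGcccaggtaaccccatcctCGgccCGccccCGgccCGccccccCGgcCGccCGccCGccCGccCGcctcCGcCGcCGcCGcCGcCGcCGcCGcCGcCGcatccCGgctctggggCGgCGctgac
WNT7A: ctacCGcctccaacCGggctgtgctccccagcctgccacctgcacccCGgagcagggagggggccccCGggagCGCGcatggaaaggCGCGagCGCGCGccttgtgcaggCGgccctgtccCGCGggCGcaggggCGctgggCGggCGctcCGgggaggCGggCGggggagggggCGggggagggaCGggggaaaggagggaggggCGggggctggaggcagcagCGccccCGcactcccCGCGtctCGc
The 3 windows hold 26, 40 and 29 CG dinucleotides for WNT3, WNT4 and WNT7A, against a median of 11 over the 35116 windows of the table, and 9 of the 11 member windows were above that median. The GATA motif, searched on both strands as AGATAA, as its variant AGATAG, and with a first T as TGATAA or the form TGATAG, was in 0 of the 11 member windows and in 22.3% of all windows. The TCF/LEF motif, searched as CTTTGAA or in the form CTTTGAT on both strands, was in 0 of the 11 and in 5.94% of all. TATAAA, on either strand, was in 1 of the 11, before the second start site of WNT5B, and in 10.7% of all. The share of G or C was 68.8%, 86.8% and 80.4% in the WNT3, WNT4 and WNT7A windows. It ran from 50.8% to 86.8% over the 11 member windows, against a median of 58% over all windows. Its part in the motif counts was not tested. The motif counts describe letters in short windows and say nothing of binding.

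The rest of the pathway was read from 8 lists with 59 tested genes, each counted once. Of these, 0 passed the threshold, 9 had an unadjusted p under 0.05 and the smallest adjusted p was 0.231 (limma). Both DOX libraries lay above both noDOX libraries in 14 of the 59 and below in 12, where all genes tested gave 14.7% and 17.3%. The same shares stand beside the counts of each list below, which hold only 3 to 16 tested genes. The median log2 difference of the 59 was 0.01. NoDOX library 2 was the highest library for 26 of the 59, or 44.1%, against 25.4% of all genes tested.

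Of 6 tested genes that make and release WNT ligands, 4 were higher and 1 lower with doxycycline without overlap, 0 passed, and the median log2 difference was 0.11. PORCN, the acyltransferase that lipid-modifies WNT proteins, had 8.82 and 8.99 FPKM in the DOX libraries, against 8.54 and 8.13 FPKM in the noDOX libraries. WLS, the carrier that brings WNT proteins to the cell surface, was at 2.77 and 3.32 FPKM in the DOX libraries and at 4.13 and 4.74 FPKM in the noDOX libraries. VPS35, a retromer subunit that recycles WLS, was at 34.2 and 35.5 FPKM in the DOX libraries and at 25.2 and 25 FPKM in the noDOX libraries. Both were without overlap and neither passed (limma, adjusted p = 0.880 for WLS and 0.871 for VPS35). TMED5, a cargo receptor of the secretory route, had a log2 difference of 0.16. It was barely apart, with 10.1 and 8.8 FPKM in the DOX libraries against 8.73 and 7.9 FPKM in the noDOX libraries.

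Of 9 tested Frizzled receptors, 3 were higher and 2 lower with doxycycline without overlap, against 14.7% and 17.3% of all genes tested. Of the 9, 0 passed. FZD2 was at 25.6 and 20.8 FPKM in the DOX libraries and at 13.4 and 13.7 FPKM in the noDOX libraries (limma, adjusted p = 0.634). FZD8 was at 9.34 and 10.4 FPKM in the DOX libraries, against 14.7 and 18.7 FPKM in the noDOX libraries. FZD5 was at 9.69 and 5.01 FPKM in the DOX libraries, against 2.65 and 4.30 FPKM in the noDOX libraries. FZD4, also counted as higher, was barely apart, with 7.46 and 3.59 FPKM in the DOX libraries against 1.91 and 3.58 FPKM in the noDOX libraries. Among 8 other receptors, ROR1, a receptor of WNT5A, was at 6.21 and 4.31 FPKM in the DOX libraries and at 2.23 and 2.62 FPKM in the noDOX libraries (adjusted p = 0.607). RYK, a WNT receptor with an inactive kinase domain, had a log2 difference of -0.32. RECK, which with GPR124 makes a receptor complex for WNT7A and WNT7B, was at 9.42 and 6.13 FPKM in the DOX libraries and at 3.33 and 7.01 FPKM in the noDOX libraries, with overlap.

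Secreted inhibitors went in both directions. SOST, which encodes sclerostin, a blocker of LRP5 and LRP6, was at 2.47 and 2.88 FPKM in the DOX libraries, at 0.0126 FPKM in noDOX library 1 and listed at 0 in noDOX library 2. These values stand for 216 and 166 fragments in the DOX libraries against 1 and 0 in the noDOX libraries. Its log2 difference of 1.87 (SE 0.23) was the one with the smallest adjusted p of the pathway lists (limma, adjusted p = 0.231). DKK1, another blocker of LRP5 and LRP6 and also a target of β-catenin, had 50.7 and 122 FPKM in the DOX libraries and 418 and 525 FPKM in the noDOX libraries (adjusted p = 0.491). SFRP4, a soluble Frizzled-like protein, had a log2 difference of -0.79. The list also holds the DKK receptors KREMEN1 and KREMEN2, which are not secreted inhibitors. Of its 7 tested genes, 1 was higher and 3, SFRP4, DKK1 and KREMEN2, were lower without overlap.

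All 3 tested genes of the R-spondin and ligase list were lower with doxycycline without overlap, where 17.3% of all genes tested were lower. Their median log2 difference was -1.11, and 0 passed. RSPO3, an R-spondin that strengthens WNT signalling, was at 4.52 and 7.71 FPKM in the DOX libraries and at 15.4 and 15 FPKM in the noDOX libraries (limma, adjusted p = 0.520). RNF43 and ZNRF3, ligases that remove Frizzled receptors and are themselves targets of β-catenin, had log2 differences of -1.11 and -0.64. ZNRF3 was barely apart, with 2.29 and 1.55 FPKM in the DOX libraries against 2.34 and 5.08 FPKM in the noDOX libraries, and its difference without noDOX library 2 was -0.21. Of the 6 tested feedback targets of β-catenin, 5 had lower mean log2 values with doxycycline, with a median of -0.47, and DKK1, RNF43 and ZNRF3 were the 3 without overlap. AXIN2, an inhibitor of the pathway, was the 1 with a higher mean, at 7.18 and 5.39 FPKM in the DOX libraries against 3.08 and 5.54 FPKM in the noDOX libraries, with overlap. The other 5 were highest in noDOX library 2, and without it the median was -0.07 and 3 of the 6 were lower, as TCF7 and NKD2 had log2 differences of 0.07 and 0.30, against -0.31 and -0.22 with it. This list shares these genes with the inhibitor and ligase lists, so the counts are not independent. Of the 16 tested genes of the β-catenin route, 4 were higher and 1 lower without overlap, against 14.7% and 17.3% of all genes tested. CTNNB1, the gene of β-catenin, was among the higher ones, with a log2 difference of 0.45. TCF7L2 and GSK3B had log2 differences of 0.61 and 0.36 and were barely apart. The lower DOX value and the higher noDOX value were 10.4 and 10.2 FPKM for TCF7L2, and 5.59 and 5.36 FPKM for GSK3B. In the planar polarity list DAAM1, a formin, was at 3.73 and 3.43 FPKM in the DOX libraries and at 1.74 and 2.34 FPKM in the noDOX libraries (adjusted p = 0.747), and CELSR1 and PRICKLE2 had log2 differences of -0.48 and 0.47.

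**Figure D4:**
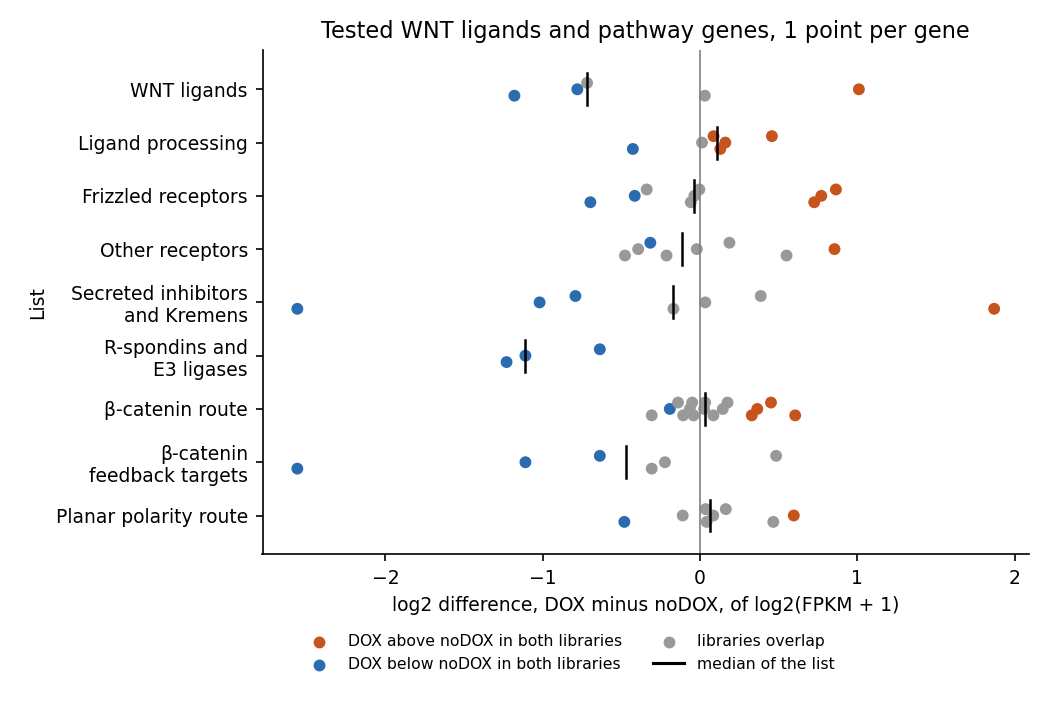
Log2 differences (DOX minus noDOX, of log2(FPKM + 1)) of the 5 tested WNT ligands and of 8 pathway lists, 1 point per gene, coloured by whether both DOX libraries lay above or below both noDOX libraries, with a line at each list's median. The ligand median is -0.72 and that of the R-spondin and ligase list -1.11, and genes on 2 lists appear in both.

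Likeness to WNT3 and WNT7B was measured over the 4 libraries as the mean absolute difference of log2(FPKM + 1) after subtracting each gene's mean, across the 59 pathway genes. The nearest to WNT3 were ROR1 at 0.098, FZD2 at 0.14 and DAAM1 at 0.21. The nearest to WNT7B were KREMEN2, a DKK1 receptor, at 0.16, RNF43 at 0.27 and RSPO3 at 0.31. KREMEN2 was at 0.751 and 0.843 FPKM in the DOX libraries and at 1.37 and 4.61 FPKM in the noDOX libraries. Its highest value, like that of WNT7B, was in noDOX library 2, without which its log2 difference was -0.40, against -1.02 with it.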

How the data were processed

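The submitters' processing notes name TopHat2 2.0.10 and Bowtie, then Cuffdiff and Cufflinks 2.2.1, with the build hg19. The authors deposited 1 table of FPKM, with 1 column per library. No source used here states the annotation, the strand setting or the scaling between libraries, and small RNA genes held 34.8 to 41.9% of each library's summed FPKM. Values were tested on log2(FPKM + 1), which understates the difference of low genes, with limma 3.58.1 in R 4.3.3, 2 group means, a mean-variance trend and 2 residual degrees of freedom, two-sided, adjusted p under 0.05. The procedure was tested on simulated data with known changes. Members and lists were chosen with earlier results of these data known. Of the other WNT genes those above 0.1 FPKM in a library are named, and of each pathway list the 3 with the smallest p. SOST's fragments, WNT10B's rank, PORCN, GPR124, AXIN2, TCF7, NKD2, FZD4, KREMEN1 and genes of the depth paragraph were added after values were seen. So were the sums and shares without WNT4 or WNT5B, and the G or C shares of the windows. The values of genes other than the members without noDOX library 2 were also added then.

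Among 1948 low genes (above 0 in 3 or more libraries, mean under 0.1 FPKM), 1595 (81.9%) gave whole fragments within 0.01, trying up to 25 fragments in the lowest library. For ligands up to 400 were tried, and 6 members resolved. True numbers may be a common multiple, and 4 members, WNT2B, WNT3, WNT7B and WNT10A, did not resolve. Absolute depth is unknown. TRABD2A, on the ligand processing list, was not analysed here. Alternatives changed the pseudocount to 0.1, the filter, the scaling, the moderation, a replicate block and the libraries used.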

Additional observations from a re-analysis of the deposited data

How the results depend on the processing

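In none of the 13 alternatives did a WNT ligand gene pass the threshold (0 in each), against 0 with the settings reported. WNT3, WNT4 and WNT7B kept their direction in all 13, and WNT5B in the 12 that could test it. The adjusted p of WNT3, WNT4 and WNT7B ran from 0.13, 0.162 and 0.274 up to 1 (limma). These lowest values all came from the crossed replicate block described below, which was added after the data were seen. In the other alternatives the lowest were 0.367 for WNT3 (pseudocount of 0.1), 0.792 for WNT4 (no filter) and 0.356 for WNT7B (replicate block). WNT9A, near 0, ran from -0.11 to 0.17 when 1 library was left out. The median of the tested members was -1.08 with a pseudocount of 0.1 and ran from -0.66 to -0.23 when 1 library was left out, the weakest resting on 4 genes. The genes past the threshold over the whole table, 11 in all, were 1 with no filter, 1 with small RNA genes left out and totals made equal, and 51 to 61 with 1 library left out. With small RNA genes left out, 1 was higher and 0 lower, against 3 and 8, and the median of all genes moved to 0.07. Fits without 1 library assume that the lone library of its group varies like the others. The replicate block called 65 genes. Same-numbered libraries deviated in opposite directions (r = -0.352 across 12504 genes), and a crossed replicate block, added after the data were seen, called 7. No other cause of these moves was tested. Depth limits WNT5A, WNT7A and WNT10A, and no absolute depth can be given.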
